A study of Mus musculus with 24 samples.

Results

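The genes described here move cholesterol out of cells, store it as ester, or answer to the liver X receptors (LXRs), nuclear receptors that sense oxysterols. They were chosen by name: Abca1, Abcg1, Abcg5, Abcg8, Scarb1, Mylip, Lpcat3, Soat1, Soat2 and Lcat, 10 of the 78298 gene IDs listed and 10 of the 17456 genes tested. Each symbol matched 1 gene ID in the deposited table, and all 10 passed the filter on low counts in the whole table. RNA from whole liver was counted in 18 mice of a steatohepatitis model (M1 to M18), a condition of fat storage with inflammation, and in 6 normal control mice (C1 to C6), with 1 library per mouse. No label splits the 18 model mice further, and none gives a strain, sex, age, diet, genotype or duration for either group. Nothing in them says whether the mice of a group were housed, killed or processed together.

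LXR works as a dimer with the retinoid X receptor on DNA, and its ligands accumulate when a cell holds too much cholesterol. Its targets export sterol, slow sterol uptake and drive fatty acid synthesis, while the factor SREBP-2 does the opposite and turns on sterol synthesis and uptake when sterol is scarce. In liver, ABCA1 loads cholesterol onto apolipoprotein A-I to start HDL, ABCG5 and ABCG8 pump it into bile, and the acyltransferases SOAT1 and SOAT2 store it as ester.

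Libraries held 32.2 to 58.4 M counts in model mice and 31.6 to 49.5 M in controls, and every described gene had at least 20 counts in every library. Levels are in CPM, counts set against library sizes that were scaled by trimmed mean of M-values (TMM). TMM factors averaged 1.06 ± 0.0610 (SD, n = 18) in model mice and 0.843 ± 0.0285 (SD, n = 6) in controls. With library totals alone, the median gene is at 0.34 on the log2 fold change scale, against 0.01 with TMM. A clock index, the mean log2 CPM of Arntl, Npas2, Clock and Cry1 minus that of opposite-phase clock genes such as Dbp and Nr1d1, was -3.84 to -2.75 in model mice and -1.43 to 0.65 in 5 controls. Control C6 lay apart from the other controls at -4.00. Apart from this mouse, clock phase and group cannot be told apart, and calls or list counts that change with this index as a covariate are given beside the result. Markers of macrophages also differed between the groups. The summed level of 10 macrophage and monocyte genes was 131 to 664 CPM in model mice and 23.5 to 53.8 CPM in controls. All 10 were called higher, against 31.2% of all genes. The median log2 fold change of the 10 was 3.34, and Lyz2, lysozyme, was the most abundant (3.94). Of 8 hepatocyte genes matched and tested, 7 were called lower, and 5 with the clock index (28.8% and 18.3% of all genes). The 9th listed, Tf, matched no symbol. The hepatocyte sum was 57808 to 119960 CPM in model mice and 115493 to 182691 CPM in controls, with albumin (Alb, log2 fold change -0.88) as the most abundant. In a bulk sample, more cells of a type and more RNA per cell cannot be told apart.

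Of the 10 genes, 8 were higher in model livers, 1 was lower and 1 did not pass (quasi-likelihood test of edgeR, p adjusted by Benjamini-Hochberg over all genes tested, threshold 0.05). Over all genes, 31.2% were called higher and 28.8% lower. A call by itself sets no gene apart in these data, since 60.0% of genes had one. The 10 genes had a median of 0.76 in log2 fold change, against 0.01 over all genes tested. With library totals alone 9 were higher and 1 lower (53.9% and 8.95% of all genes), with upper-quartile factors also 9 and 1 (36.0% and 21.4%), and with the clock index 6 and 1 (22.3% and 18.3%). A rise of at least 2-fold was called for 4 of them, Abcg1, Soat1, Abcg5 and Mylip, and for 16.3% of all genes. With the clock index Abcg5 lay just below 2-fold, at 0.99 on the log2 scale, while Abcg1, Soat1 and Mylip stayed above it. The share of all genes at that size was not computed for that fit. The groups did not overlap for 3 that were higher, Abcg1, Soat1 and Abcg5, and for Lcat, which was lower. Over all genes, non-overlap was found for 9.67% upward and 6.02% downward.

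**Figure D1:**
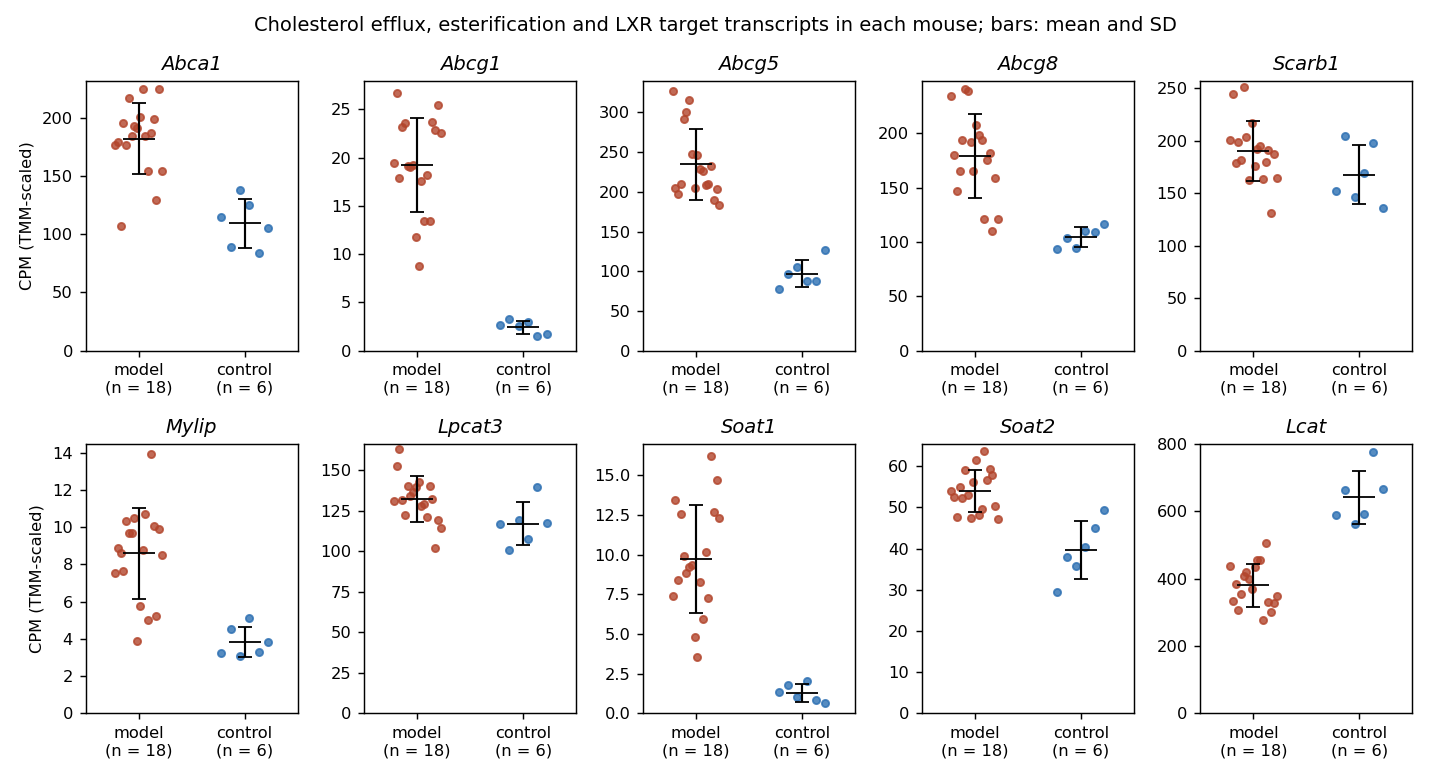
CPM of each of the 10 genes (y axis, TMM-scaled, from 0) in 18 model and 6 control mice (x axis), 1 point per mouse, with bars for mean and SD. Abcg1, Soat1 and Abcg5 lie above every control and Lcat lies below every control in all 18 model mice, while Scarb1 and Lpcat3 overlap broadly.

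Abcg5 and Abcg8, which export cholesterol into bile, rose together. They encode the partners of a single pump of the canalicular membrane that secretes cholesterol and plant sterols into bile. Both are LXR targets. Abcg5 (ENSMUSG00000040505, chromosome 17, 84965662 to 84990439, minus strand, GRCm39) ran from 184 through a median of 218 to 327 CPM in model mice, against 78.1, 92.3 and 127 CPM in controls as lowest, median and highest. Every model mouse was above every control. The log2 fold change was 1.28 (SE 0.13, adjusted p = 4.47e-09, edgeR), or 2.42-fold. Abcg8 (ENSMUSG00000024254, chromosome 17, 84983730 to 85007761, plus strand) had 110, 181 and 241 CPM as lowest, median and highest in model mice, against 93.3, 107 and 117 CPM in controls. It was above every control in 17 of 18 model mice, and M16, the exception, fell within the control range. Its log2 fold change was 0.78 (SE 0.14, adjusted p = 2.26e-05, edgeR), or 1.71-fold. With the clock index as covariate the log2 fold changes were 0.99 for Abcg5 and 0.70 for Abcg8 (adjusted p = 0.000262 and 0.0156, edgeR), and both calls held. The highest control for both genes was C6, the control whose clock index lies nearest to those of the model mice, at 127 CPM for Abcg5 and 117 CPM for Abcg8. The model medians were 1.73 and 1.55 times those C6 levels.

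The balance of the pump's transcripts shifted as well. The log2 ratio of Abcg5 to Abcg8 counts was 0.40 ± 0.18 in model mice (SD, n = 18) and -0.12 ± 0.21 in controls (SD, n = 6). This is a ratio of 1.32 in model mice and 0.919 in controls, a difference of 0.53 on the log2 scale that does not depend on library scaling. The ranges did not meet, at 0.19 to 0.78 in model mice and -0.32 to 0.15 in controls. A two-sided exact permutation test gave p = 7.43e-06, the smallest that 134596 divisions can give, and the same value after adjustment over 3 ratios. The clock index was not part of this test. With it as covariate in edgeR, the log2 fold changes of Abcg5 and Abcg8 lay nearer to each other (0.99 and 0.70) than without it (1.28 and 0.78). Control C6, the nearest to the model mice in that index, had 3745 counts of Abcg5 and 3455 of Abcg8. The deposited exons of the genes share 82 bases on opposite strands. Whether the counting used strand is not given in the sources used here. Some reads of that stretch may thus have been counted for either gene.

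Abcg5 and Abcg8 have RefSeq transcription starts that lie head to head, only a short stretch apart. A second RefSeq start of Abcg8 lies elsewhere, at 84676302 (GRCm38.p6), and in the deposited annotation Abcg8 begins within Abcg5. The short stretch is shown because both transcripts rose together and because it is all that separates the nearer starts. It spans chr17:84683012-84683120 (GRCm38.p6, RefSeq promoter table, read on the plus strand, so Abcg5 is transcribed leftward and Abcg8 rightward), 109 bases in all. Capitals mark the GATA word AGATAA, searched on both strands and chosen after the stretch was read.
Abcg5-Abcg8 intergenic: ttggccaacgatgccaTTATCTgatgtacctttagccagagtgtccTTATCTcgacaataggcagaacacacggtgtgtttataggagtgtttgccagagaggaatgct
The word occurs 2 times between the starts, in the same orientation, and 3 times in the whole 300-base window at each of these starts. The window at the second RefSeq start of Abcg8 holds none. Of 32851 RefSeq promoter windows of that length (250 bases before the start to 50 after it), 11.2% hold it at least once. No other described gene with a window had it except Lcat, with 1 match. A match of letters is a description and not evidence of binding.

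Abca1 and Abcg1 encode exporters that hand cholesterol to HDL, ABCA1 to lipid-poor apolipoprotein A-I and ABCG1 to mature HDL particles. Abca1 (ENSMUSG00000015243, chromosome 4, 53030787 to 53159895, minus strand) had 107, 185 and 225 CPM as lowest, median and highest in model mice, against 83.6, 110 and 138 CPM in controls. It was above every control in 16 of 18 model mice, and M3 and M16 lay within the control range. Abca1 rose by 0.74 on the log2 scale (SE 0.12, adjusted p = 1.29e-05, edgeR), or 1.66-fold. With the clock index it was 0.77 (adjusted p = 0.00477, edgeR). Abcg1 (ENSMUSG00000024030, chromosome 17, 31276649 to 31336962, plus strand) had 8.75, 19.2 and 26.7 CPM as lowest, median and highest in model mice, against 1.54, 2.61 and 3.25 CPM in controls. All 18 model mice were above every control. Its log2 fold change of 2.96 (SE 0.22, adjusted p = 4.57e-11, edgeR), or 7.81-fold, was the highest of the 10 genes, and 387 of the 17456 genes tested had a higher one. The log2 ratio of Abcg1 to Abca1 counts was -3.27 ± 0.53 in model mice (SD, n = 18) and -5.50 ± 0.40 in controls (SD, n = 6). Abcg1 thus gained on Abca1 by 2.22 on the log2 scale (two-sided exact permutation test, p = 7.43e-06, adjusted 7.43e-06 over 3 ratios), with no overlap between the groups. Among model mice their relation did not pass, with a Pearson r of -0.11 over 18 mice (permutation test, p = 0.668, adjusted p = 0.806 over 45 pairs). The genes nearest to Abca1 in pattern, by Spearman rho of log2 CPM over 18 model mice among 11604 genes with at least 1 CPM on average, were Usp33 (0.90), a deubiquitinase, Rnf20 (0.89), a ubiquitin ligase of histone H2B, and Rrp15 (0.89), a ribosome assembly factor.

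The Abca1 promoter holds the textbook LXR element, a direct repeat, and is printed for that reason. The 250 bases before its RefSeq start span chr4:53159896-53160145 (GRCm38.p6, minus strand), written in the direction of transcription. Capitals mark, from left to right, an E-box (CACGTG) and a match, on the opposite strand, to a direct repeat word: GGTNA, then 5 bases of any kind, then GGTNA again, where N is any base.
Abca1 promoter: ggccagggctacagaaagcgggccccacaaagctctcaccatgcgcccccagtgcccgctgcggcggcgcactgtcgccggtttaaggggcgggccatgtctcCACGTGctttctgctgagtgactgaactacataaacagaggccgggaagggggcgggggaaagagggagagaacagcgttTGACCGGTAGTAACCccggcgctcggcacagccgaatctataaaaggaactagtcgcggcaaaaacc
The direct repeat begins at position -67 from the start and the E-box at -147. Both strands were searched in the whole 300-base window, where the direct repeat word occurs in 0.718% of 32851 RefSeq promoters and the E-box in 7.15%. RefSeq windows matched 7 of the 10 genes, and among them only Abca1 held the direct repeat word or the E-box. A sterol regulatory word (TCACNCCAC, in 1.24% of all windows) and a word of the receptor LRH-1 (CAAGGTCA, in 1.56%) matched none of the 7. These windows are short, and letters missing from them say nothing of sites elsewhere.

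Soat1 and Soat2 esterify cholesterol for storage. SOAT2 is the enzyme of hepatocytes and enterocytes, and SOAT1 serves most other cells, macrophages among them. Soat1 (ENSMUSG00000026600, chromosome 1, 156252095 to 156301901, minus strand) had 3.56, 9.28 and 16.2 CPM as lowest, median and highest in model mice, against 0.676, 1.19 and 2.06 CPM in controls. All 18 model mice were above every control, though they spread more widely than for any other of the 10 genes, the highest model mouse having 4.55 times the level of the lowest. The log2 fold change was 2.91 (SE 0.30, adjusted p = 1.12e-08, edgeR), or 7.52-fold. Soat2 (ENSMUSG00000023045, chromosome 15, 102058961 to 102071904, plus strand) had 47.3, 53.4 and 63.7 CPM as lowest, median and highest in model mice, against 29.5, 39.2 and 49.4 CPM in controls. It was above every control in 14 of 18 model mice, and among model mice it had the smallest coefficient of variation of the 10 genes, 9.39%. Soat2 rose by 0.44 on the log2 scale (SE 0.08, adjusted p = 4.55e-05, edgeR), or 1.36-fold. This call was lost with the clock index, at 0.20 on the log2 scale (SE 0.12, adjusted p = 0.180, edgeR), and C6 was the highest control, with a model median 1.08 times its level. The nearest genes to Soat2 over the model mice were Tmed8 (0.81), Vamp1 (0.79), a vesicle fusion protein, and Sugp2 (0.79). They were picked as the highest of 11604 genes over 18 mice and were not tested, so rho values of this size may owe much to the picking. Per mouse, the log2 ratio of Soat1 to Soat2 counts was -2.56 ± 0.60 in model mice (SD, n = 18) and -5.01 ± 0.78 in controls (SD, n = 6). Soat2 counts were thus 5.90 times those of Soat1 in model mice and 32.3 times in controls, a shift in the ratio of 2.46 on the log2 scale (two-sided exact permutation test, p = 7.43e-06, adjusted 7.43e-06 over 3 ratios). The groups did not overlap. Corrected for the deposited exon length, the Soat1 to Soat2 ratio was 0.0383 in model mice and 0.00699 in controls. By this measure Soat2 was the more abundant of the pair in both groups. That length sums the exons of a gene and need not be that of the transcripts expressed.

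Abcg1 and Soat1 followed macrophage markers from mouse to mouse. A score, the mean log2 CPM of the 10 macrophage and monocyte genes, correlated with Soat1 over the 18 model mice (Pearson r = 0.98, Spearman rho = 0.99; permutation test, p = 1e-05 for each, the smallest 100000 resamples can give, adjusted 0.000133 over 40 relations). For Abcg1, r was 0.96 and rho 0.91 (permutation test, p = 1e-05 and adjusted p = 0.000133 for each). Without M10 and M15, the mice farthest from the median score, r was 0.97 for Soat1 and 0.95 for Abcg1. Soat1 and Abcg1 also correlated with each other (r = 0.95, rho = 0.90; permutation test, p = 1e-05 for each, adjusted 0.00045 and 0.000225 over 45 pairs), and r was 0.88 without M9 and M10. On the first principal component of all genes, which held 33.1% of the variance among model mice, the widest gap was 26.1% of the range and set M10 apart. M10 was also the lowest model mouse for Abcg1 and Soat1. The widest gap with at least 6 mice on each side was 12.8% of the range. The component itself correlated with Lcat (r = -0.89), Soat1 (0.78), Abcg1 (0.73) and Abcg8 (-0.70), so a division along it narrows the spread of these genes, and a lower r within the sets says little of their relations. Within the 10 and 8 mice on either side of that gap, r with the score was 0.96 and 0.98 for Soat1 and 0.97 and 0.87 for Abcg1. By contrast, Abca1 (r = -0.10), Soat2 (-0.13), Scarb1 (-0.06) and Mylip (0.19) did not pass in their relation to the score. For Abca1, r was -0.07 within the 10 mice and 0.83 within the 8. The macrophage markers differed between the groups too, and their part in the rise of Abcg1 and Soat1 was not tested.

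**Figure D2:**
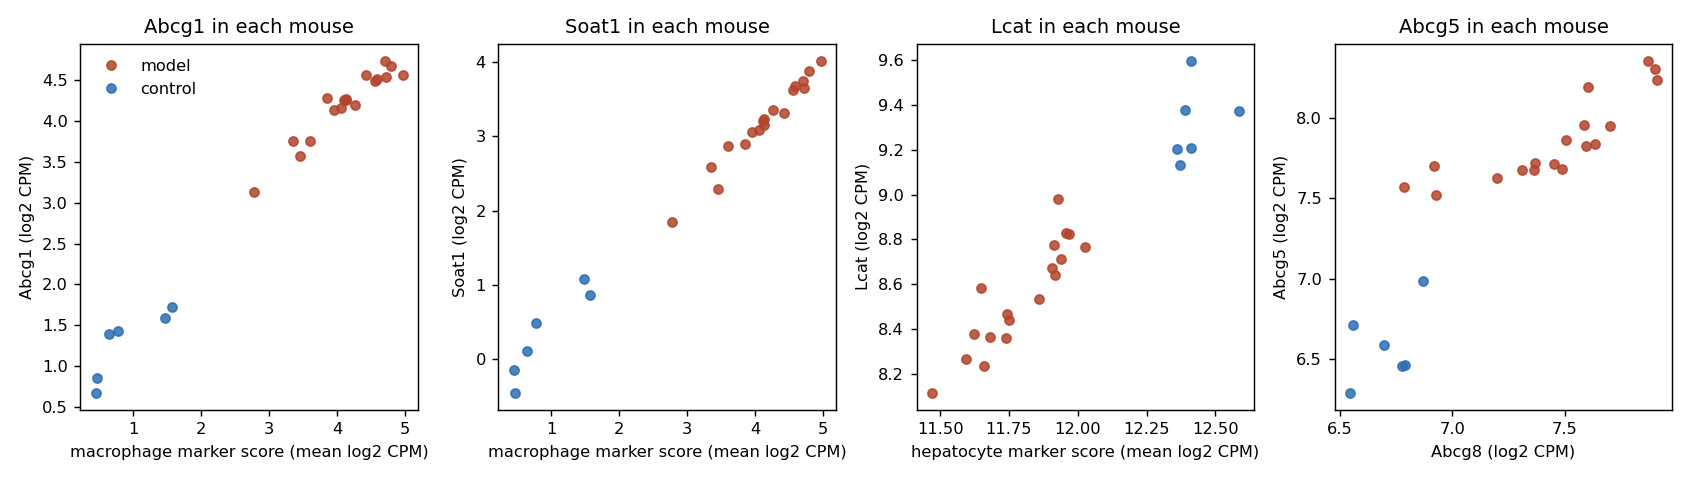
Each point is a mouse (18 model, 6 control), all axes on the log2 CPM scale: Abcg1 and Soat1 against the macrophage marker score, Lcat against the hepatocyte marker score, and Abcg5 against Abcg8. Among model mice r is 0.96, 0.98, 0.90 and 0.84 from left to right. In the last panel all 18 model points lie above every control in Abcg5, and 17 of them also do so in Abcg8.

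The nearest genes to the other transcripts were ranked by the same Spearman measure as for Abca1. These rho values are the highest of 11604 and carry no test. For Abcg1 they were Lair1 (0.98), an inhibitory receptor of leukocytes, Cd180 (0.96), a Toll-like receptor homologue of B cells and myeloid cells, and Cybb (0.96), the catalytic subunit of the phagocyte oxidase. For Soat1 they were Tlr13, an endosomal receptor for bacterial RNA, Tmem132a, and Il10ra, the interleukin-10 receptor chain, each at 0.98. Abcg5 had Abcg8 as its nearest gene of all (0.91), followed by Pag1 (0.84) and Gbp2b (0.83). For Abcg8 the order was Spry4 (0.92), a feedback inhibitor of growth factor signalling, Abcg5 (0.91) and Sptb (0.87). Abcg5 and Abcg8 had a Pearson r of 0.84 (permutation test, p = 9e-05, adjusted 0.00202 over 45 pairs) and a rho of 0.91 (p = 1e-05, adjusted 0.000225, by permutation). Without M1 and M7, r was 0.80. It was 0.88 and 0.71 within the 10 and 8 mice.

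Scarb1 encodes SR-BI, the receptor through which hepatocytes take cholesterol ester from HDL. Scarb1 (ENSMUSG00000037936, chromosome 5, 125354151 to 125418158, minus strand) had 131, 189 and 251 CPM as lowest, median and highest in model mice, against 136, 160 and 205 CPM in controls. The groups overlapped, with 14 of 18 model mice inside the control range. Its log2 fold change of 0.18 (SE 0.10, adjusted p = 0.135, edgeR) did not pass. With upper-quartile factors it was 0.27 (adjusted p = 0.0210, edgeR) and with library totals alone 0.51 (adjusted p = 0.000177, edgeR), scalings that put the median gene at 0.11 and 0.34. Among model mice Scarb1 correlated with Srebf1, the LXR target that encodes the main driver of fatty acid synthesis (r = 0.71, rho = 0.66; permutation test, p = 0.00067 and 0.0038, adjusted 0.00584 and 0.0217 over 40 relations). Without M2 and M6, r was 0.52. Within the 10 and 8 mice it was 0.69 and 0.74. Genes near to it in pattern were Slc26a1 (0.86), a sulfate transporter, and Cyp2b13 (0.85), a cytochrome P450 gene whose close copies can share its reads.

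Mylip and Lpcat3 are LXR targets that act on uptake and on membranes. Mylip encodes IDOL, a ubiquitin ligase that slows the uptake of lipoprotein cholesterol. Mylip (ENSMUSG00000038175, chromosome 13, 45543218 to 45565498, plus strand) had 3.89, 8.85 and 13.9 CPM as lowest, median and highest in model mice, against 3.09, 3.56 and 5.12 CPM in controls. It was above every control in 16 of 18 model mice, and M9 and M13 lay within the control range. Mylip rose by 1.16 on the log2 scale (SE 0.20, adjusted p = 1.84e-05, edgeR), or 2.23-fold, and 1.32 with the clock index (adjusted p = 0.00299, edgeR). The nearest genes were Ntn4 (0.98), a laminin-related matrix protein, Ets1 (0.92), a transcription factor of endothelium and lymphocytes, and Pxdn (0.90), a peroxidase that crosslinks basement membrane. Mylip did not pass in any of its 9 pairs with the other genes, nor with any of the 4 measures tested. Of 6 endothelial markers 5 were called higher, against 31.2% of all genes, with Stab2 (log2 fold change 1.46) as the most abundant. The endothelial markers summed to 49.2 to 167 CPM in model mice and 30.6 to 61.4 CPM in controls. Their part in the Mylip result was not tested.

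Lpcat3 encodes the acyltransferase that puts polyunsaturated chains into phospholipids, which eases lipid movement through membranes. Lpcat3 (ENSMUSG00000004270, chromosome 6, 124639990 to 124681381, plus strand) had 102, 132 and 163 CPM as lowest, median and highest in model mice, against 101, 117 and 139 CPM in controls. The groups overlapped, with 13 of 18 model mice inside the control range. The log2 fold change was 0.18 (SE 0.08, adjusted p = 0.0454, edgeR). This call rested on single libraries: it was lost in 16 of 24 fits that each left out 1 mouse, with adjusted p up to 0.139, reached without C2. With the clock index it was 0.11 (adjusted p = 0.515, edgeR), and with DESeq2 the adjusted p was 0.0527. Lpcat3 shares 334 exon bases with Emg1 on the opposite strand, a gene with 33.1% as many counts, so a part of its reads is uncertain. Its nearest genes were Hps1 (0.91), a gene of lysosome-related organelles, Abhd16a (0.90), a phospholipase, and Zer1 (0.89). Of 8 other lysophospholipid acyltransferases tested, 4 rose and 2 fell, where 31.2% of all genes rose and 28.8% fell. Lpcat2, a macrophage enzyme that also makes platelet-activating factor, rose most, at 6.57 ± 2.28 CPM in model mice (SD, n = 18) and 0.735 ± 0.231 CPM in controls (SD, n = 6). Its log2 fold change was 3.15 (SE 0.30, adjusted p = 2.84e-09, edgeR). Lpcat1 (1.48) and Lpcat4 (1.13) came next in log2 fold change, and Agpat3, the most abundant, fell by 0.21. With library totals alone 5 of the 8 were called higher and 0 lower (53.9% and 8.95% of all genes). The clock index gave 2 and 0 (22.3% and 18.3% of all genes), and Lpcat4 did not pass there (adjusted p = 0.104, edgeR). Mboat2 was too low to test.

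Lcat was the only one of the 10 genes to fall. It encodes the plasma enzyme, secreted by hepatocytes, that esterifies the cholesterol of HDL and so lets the particle mature. Lcat (ENSMUSG00000035237, chromosome 8, 106666183 to 106670014, minus strand) had 277, 377 and 506 CPM as lowest, median and highest in model mice, against 562, 628 and 776 CPM in controls. All 18 model mice were below every control. The log2 fold change was -0.75 (SE 0.10, adjusted p = 4.30e-07, edgeR), 0.593 times the control level, and it stayed negative with library totals alone (-0.43). Over the model mice Lcat rose and fell with the hepatocyte score (r = 0.90, rho = 0.87; permutation test, p = 1e-05 and adjusted p = 0.000133 for each). The value was 0.87 without M10 and M13, and 0.71 and 0.63 within the 10 and 8 mice. Its nearest gene was Slc27a5 (0.97), the bile acid CoA ligase of hepatocytes, followed by Actr8 (0.95) and Ldah (0.95), a lipid droplet hydrolase. Lcat was inversely related to the macrophage score (r = -0.71, rho = -0.80; permutation test, p = 0.00073 and 0.00018, adjusted 0.00584 and 0.0018). That r was -0.74 without M10 and M15, and -0.40 and -0.18 within the 10 and 8 mice. Hepatocyte markers thus moved with Lcat between the groups and among model mice, and their part in its fall was not tested.

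**Figure D3:**
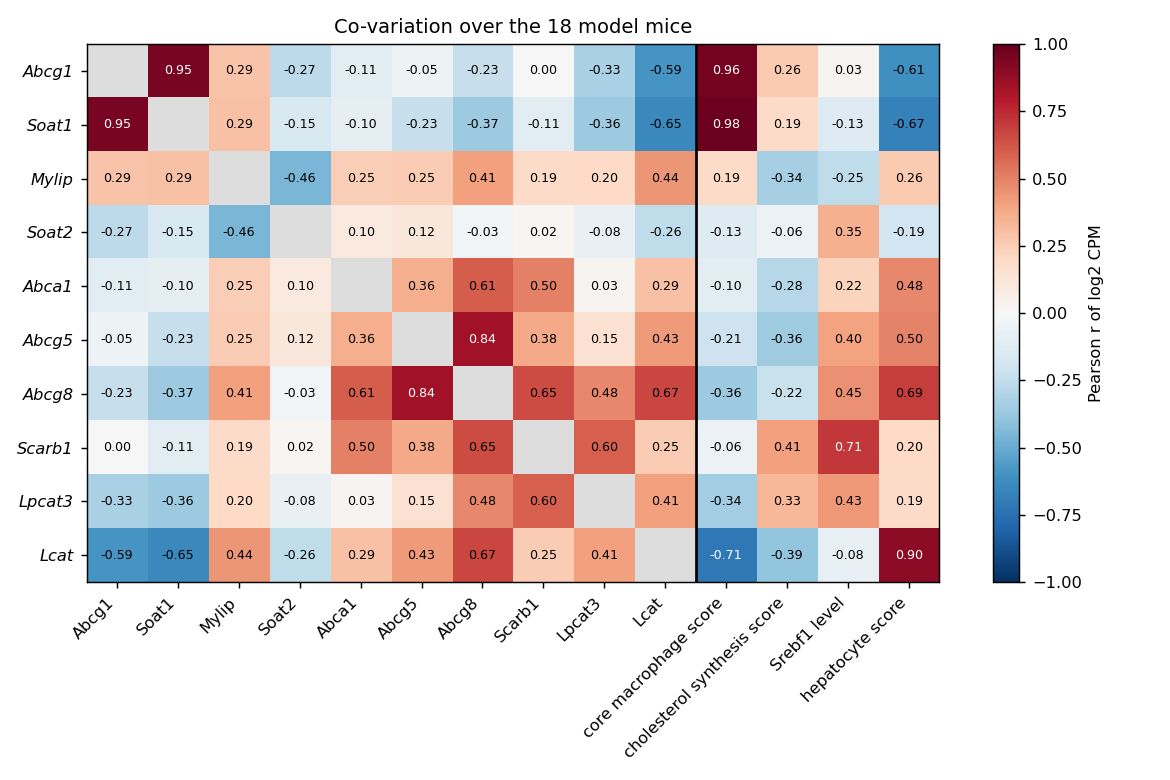
Pearson r of log2 CPM over the 18 model mice for each pair of the 10 genes (left of the line) and for each gene with 4 measures (right of the line); grey cells are a gene with itself. Abcg1 and Soat1 form a block with the macrophage score (0.95 to 0.98), apart from Abcg5 and Abcg8 (0.84).

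For most pairs of the 10 genes no relation passed. Of 45 pairs, 5 passed over the model mice, 4 positive and 1 negative (Pearson r, permutation test, adjusted p below 0.05), and 4 of the 5 also passed by Spearman rho. The share that would pass over all genes was not computed, so these counts do not set the 10 genes apart. The first principal component of all genes, with 33.1% of the variance, itself correlated with the macrophage score (r = 0.83) and the hepatocyte score (r = -0.91). Beyond the pairs already given, Abcg8 correlated with Lcat (r = 0.67, rho = 0.67; permutation test, p = 0.00277 and 0.00288, adjusted 0.0317 and 0.0324) and with Scarb1 (r = 0.65, rho = 0.54; p = 0.00315 and 0.0223, adjusted 0.0317 and 0.167). Soat1 and Lcat were inversely related (r = -0.65, rho = -0.80; permutation test, p = 0.00352 and 0.00014, adjusted 0.0317 and 0.0021). Without the farthest mice from the median of the gene named first, r was 0.48 for Abcg8 with Lcat, 0.42 for Abcg8 with Scarb1 and -0.79 for Soat1 with Lcat. Within the 10 and 8 mice, r was 0.05 and 0.32 for Abcg8 with Lcat, 0.38 and 0.88 for Abcg8 with Scarb1, and -0.16 and -0.20 for Soat1 with Lcat. All 5 pairs had the same sign in both sets. On library totals, the relations of Abcg8 with Lcat, Abcg8 with Scarb1 and Soat1 with Lcat no longer passed (adjusted p = 0.0705 for each, permutation test), which left 2 of the 45 pairs. Of the 40 relations with measures, 8 passed, and for these too the share over all genes was not computed. Those of the hepatocyte score with Abcg8 (r = 0.69, rho = 0.67; permutation test, p = 0.00147 and 0.00335, adjusted 0.0098 and 0.0217), with Soat1 (r = -0.67, rho = -0.72; p = 0.00207 and 0.00118, adjusted 0.0118 and 0.00944) and with Abcg1 (r = -0.61, rho = -0.61; p = 0.00683 and 0.00845, adjusted 0.0341 and 0.0422) were 0.60, -0.69 and -0.66 without M10 and M13. Within the 10 mice r was 0.21, -0.50 and -0.61, and within the 8 mice 0.12, 0.43 and 0.50, so those with Soat1 and Abcg1 changed sign. On library totals, those with Soat1 and Abcg1 did not pass (r = -0.45 and -0.43, adjusted p = 0.147 and 0.157, permutation test). No gene passed with the score of sterol synthesis genes, r lying between -0.39 and 0.41 (permutation test, smallest adjusted p = 0.286). On library totals, Lcat did pass with that score (r = -0.64, adjusted p = 0.0236, permutation test), so that 7 of the 40 relations passed there, 6 of them also with TMM.

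To set different genes side by side, levels were divided by the deposited length, the summed exon length of each gene. This length, 1342 bases for Lcat and 8500 for Scarb1, need not be that of the transcripts expressed. The order between genes is therefore approximate. Per kilobase, Lcat was the most abundant of the 10 in both groups. It had 283 ± 47.0 CPM per kilobase in model mice (SD, n = 18) and 478 ± 58.4 in controls (SD, n = 6). Abcg5 came next, at 86.6 ± 16.5 CPM per kilobase in model mice and 35.8 ± 6.28 in controls. In controls Abcg5 could not be told from Lpcat3 (35.7 ± 4.02) by the spread of the mice. In model mice it stood clear of Abcg8 (47.8 ± 10.3), and Abcg8 could not be told from Lpcat3 (40.4 ± 4.27). Soat2, Scarb1 and Abca1 followed in model mice at 24.4 ± 2.29, 22.3 ± 3.35 and 17.6 ± 2.94, with neighbours overlapping. In controls Abca1 (10.6 ± 2.01) lay below Soat2 (17.9 ± 3.18), which could not be told from Scarb1 (19.7 ± 3.33). Mylip, Abcg1 and Soat1 were lowest in both groups. In model mice Mylip (2.66 ± 0.759) and Abcg1 (2.63 ± 0.672) could not be told apart, above Soat1 at 0.993 ± 0.347, while in controls Mylip (1.19 ± 0.253) lay above Abcg1 (0.336 ± 0.0920) and Soat1 (0.132 ± 0.0552).

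**Figure D4:**
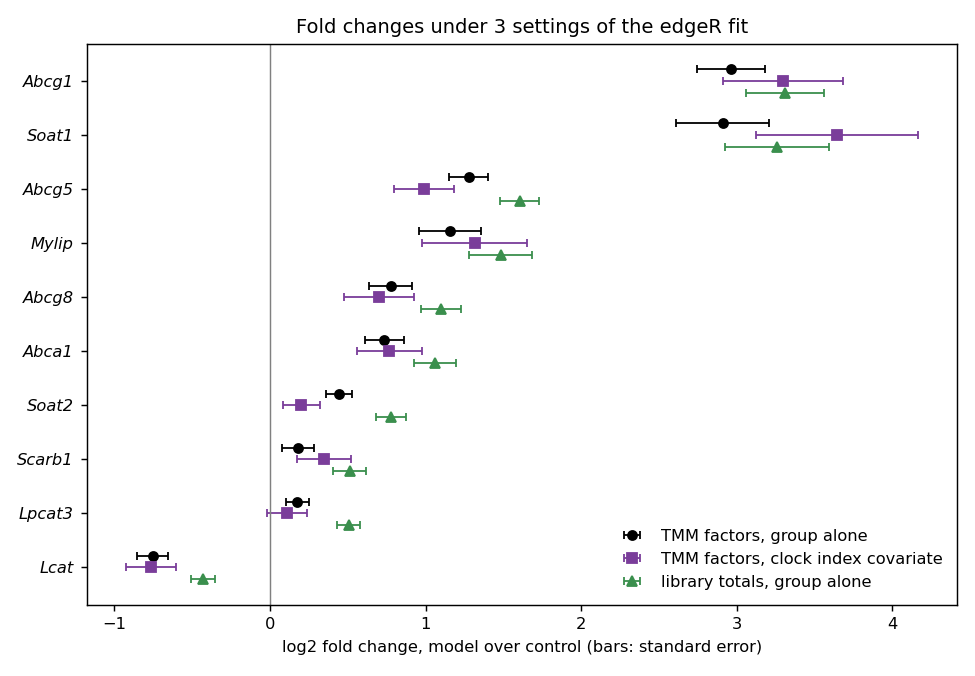
Log2 fold change of model over control (x axis, bars: standard error) for each of the 10 genes (y axis) with TMM factors, with TMM factors and the clock index as covariate, and with library totals. All settings place Abcg1 and Soat1 highest and Lcat below 0, and Soat2 drops to 0.20 with the clock index.

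None of the receptor genes was called higher with TMM factors. Of 9 LXR receptors and partners, 0 were called higher and 4 lower with TMM factors (31.2% and 28.8% of all genes). Library totals alone gave 4 higher and 0 lower (53.9% and 8.95% of all genes). Nr1h3, the gene of LXR alpha, the main form in hepatocytes and macrophages, had 86.0 ± 6.25 CPM in model mice (SD, n = 18) and 93.4 ± 6.43 CPM in controls (SD, n = 6), which did not pass at -0.12 on the log2 scale (SE 0.06, adjusted p = 0.0627, edgeR). Nr1h2, the LXR beta gene, fell by 0.28 on the log2 scale (adjusted p = 0.00186, edgeR). The retinoid X receptor genes Rxra (-0.38) and Rxrb (-0.40) also fell, and so did the corepressor gene Ncor1 (-0.33). Rxrg (0.20), Ncoa1 (0.04) and Nrip1 (-0.20), a corepressor, did not pass. With the clock index, where 18.3% of all genes were lower, Rxra and Rxrb alone of the 4 kept their calls.

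Other LXR targets rose more often than they fell. Of 18, 10 were called higher and 2 lower (31.2% and 28.8% of all genes). Their median was 0.31 against 0.01 over all genes tested (log2 fold change). With library totals alone the counts were 15 and 0 (53.9% and 8.95% of all genes). With the clock index they were 9 and 0 (22.3% and 18.3% of all genes). Lpl, the lipoprotein lipase gene, had 117 ± 47.4 CPM in model mice (SD, n = 18) and 10.7 ± 2.34 CPM in controls (SD, n = 6), or 3.45 on the log2 fold change scale (SE 0.33, adjusted p = 4.80e-09, edgeR). Cd5l, a secreted protein of resident macrophages, and Tlr4, the endotoxin receptor, followed at log2 fold changes of 3.12 and 2.55. These 3 genes are expressed by macrophages, whose markers rose, and their part in these values was not tested. The hepatocyte targets Scd1 (2.48) and Srebf1 (1.47) rose too, as did Pltp (1.48), a phospholipid carrier of plasma. Apoe, the most abundant, was at 0.20 (adjusted p = 0.0565, edgeR), and Fasn (0.25) and Cyp7a1 (0.29) did not pass. Abca7 (-0.41) and Vegfa (-0.18) fell.

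Sterol synthesis and uptake genes under SREBP-2 moved the other way. Of 21, 0 were called higher and 19 lower (31.2% and 28.8% of all genes), and their median was -1.22 (log2 fold change). With library totals alone, 18 were lower and 1 was higher (8.95% and 53.9% of all genes). The largest decreases were those of Idi1 (-3.71), Sqle (-2.88) and Cyp51 (-2.87), enzymes between mevalonate and cholesterol.

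**Figure D5:**
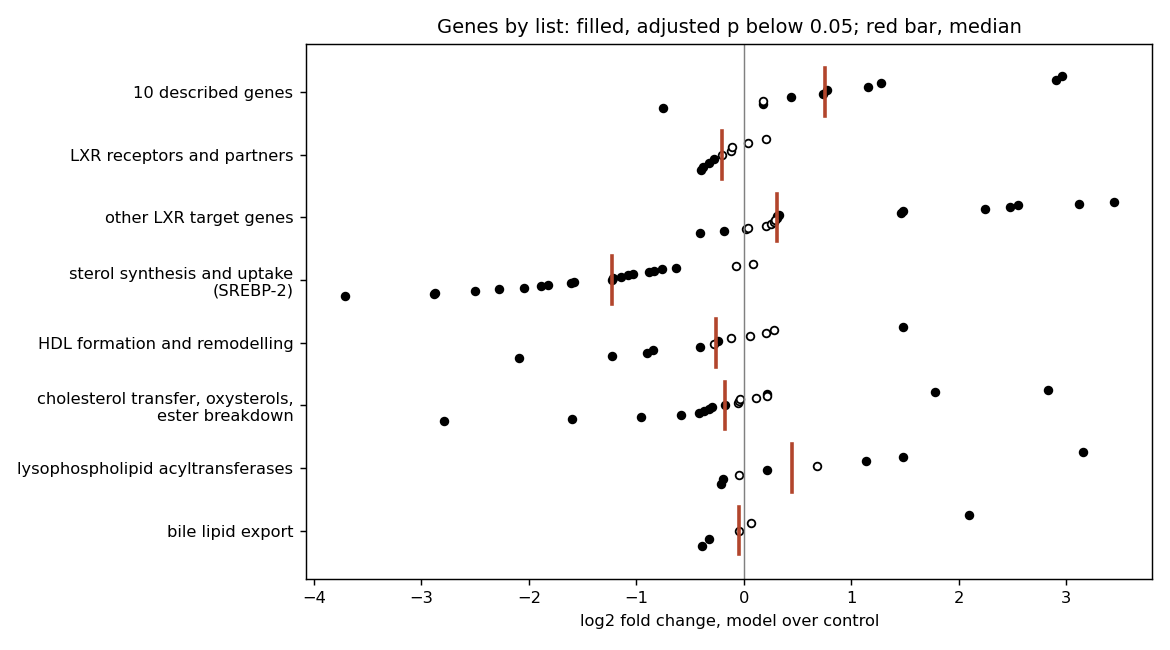
Log2 fold change of model over control (x axis) for the 10 described genes and for the tested genes of 7 lists (y axis), 1 point per gene, filled where the adjusted p is below 0.05, with red bars for medians. The sterol synthesis list has a median of -1.22 and the 10 described genes one of 0.76.

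Of 12 genes tested that form and remodel HDL, as Lcat does, 6 were called lower and 1 higher with TMM factors. Over all genes 28.8% were lower and 31.2% higher. Library totals alone gave 4 lower and 5 higher (8.95% and 53.9% of all genes). The clock index gave 4 lower and 1 higher (18.3% and 22.3% of all genes). The median of the 12 was -0.26 on the log2 fold change scale with TMM factors. Apom, the HDL apolipoprotein that carries sphingosine-1-phosphate, had 82.1 ± 15.5 CPM in model mice (SD, n = 18) and 350.4 ± 33.3 CPM in controls (SD, n = 6), or -2.09 on the log2 fold change scale (SE 0.10, adjusted p = 2.00e-14, edgeR). Lipg, endothelial lipase, fell by 1.22 on the log2 scale, and Apoa1, the acceptor of ABCA1, fell by 0.85. Pltp was the one that rose. Pdzk1, the adaptor that holds SR-BI at the hepatocyte surface, was at 0.06 (adjusted p = 0.564, edgeR). Abcg4 was too low to test.

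Genes of cholesterol transfer, oxysterols and ester breakdown fell more often than they rose, with 9 of 17 lower and 3 higher (28.8% and 31.2% of all genes), but with library totals alone 4 were lower and 8 higher (8.95% and 53.9% of all genes). The clock index gave 8 lower and 2 higher (18.3% and 22.3% of all genes). Gramd1b, whose protein carries plasma membrane cholesterol to the endoplasmic reticulum, rose most in the list, at 11.0 ± 2.47 CPM in model mice (SD, n = 18) and 1.53 ± 0.367 CPM in controls (SD, n = 6). Its log2 fold change was 2.83 (SE 0.19, adjusted p = 6.24e-12, edgeR). Cyp46a1, a cholesterol 24-hydroxylase known mainly from brain, rose by 1.78 on the log2 scale. Cyp7b1, which clears oxysterols, fell by 2.79. Ces1d, a carboxylesterase with close copies that can share reads, was the most abundant and fell by 1.59. Nceh1, a cholesterol ester hydrolase, fell by 0.58, and Lipa, the lysosomal one, did not pass (-0.04). Ch25h was too low to test. In the bile lipid export list of 5 genes, Abcb1a rose (2.10) and Abcb4, the phospholipid flippase that works beside ABCG5 and ABCG8, fell by 0.39, as did the bile salt pump gene Abcb11 (-0.32), while Abcc2, the most abundant, did not pass (-0.05). With the clock index, neither fall held (adjusted p = 0.279 and 0.184, edgeR). With library totals alone none of the 5 was lower and 3 were higher (8.95% and 53.9% of all genes).

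Markers of other tissues and cell types were summed as well. The adipocyte genes Adipoq, Plin1 and Lep summed to at most 0.154 CPM in model mice and 0.0629 CPM in controls. Of 4 enterocyte genes, Sis had no count in any library, and Apoa4, which hepatocytes also express, the most abundant (1.26), was part of a sum of 527 to 1847 CPM in model mice and 224 to 711 CPM in controls. T and B cell genes summed to 2.72 to 10.9 CPM in model mice and 1.82 to 2.91 CPM in controls, with Cd3g (log2 fold change 1.44) as the most abundant. Stellate cell genes summed to 157 to 390 CPM in model mice and 58.2 to 141 CPM in controls, with Dcn (1.26) as the most abundant. All 7 genes of each of these lists were called higher. Over all genes the share was 31.2%, which applies to the lists below as well. Bile duct genes summed to 3.72 to 30.5 CPM in model mice and 7.35 to 12.6 CPM in controls, with 1 of 5 called higher, and Epcam, the most abundant, did not pass (0.96, adjusted p = 0.116, edgeR). Kupffer cell genes, 4 of 6 of them called higher, summed to 186 to 577 CPM in model mice and 39.95 to 107 CPM in controls. Cd5l, also counted among the other LXR targets, was the most abundant, with means of 248 CPM in model mice and 28.6 CPM in controls. Timd4 (0.53, adjusted p = 0.400, edgeR) and Marco (1.26, adjusted p = 0.215, edgeR) did not pass. Lipid-associated macrophage genes summed to 92.3 to 766 CPM in model mice and 65.0 to 110 CPM in controls. All 6 lipid-associated genes were called higher, Spp1 (1.96) being the most abundant, and Lpl was also counted among the other LXR targets. With the clock index, 4 of the lipid-associated genes and 6 of the T and B cell genes were called higher, and none of the bile duct genes. Over all genes 22.3% were called higher in that fit. Spp1 did not pass there (1.60, adjusted p = 0.146, edgeR).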

How the data were processed

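Poly(A) RNA of 24 livers was captured on oligo(dT) beads and made into DNA nanoball libraries, per the labels' protocols. The authors deposited 1 table of whole-number read counts for each Ensembl gene ID, on GRCm39 per the submitters' processing notes. It also holds a Length column, in bases, that the authors deposited beside the counts. Aligner, counter, annotation and strandedness were not stated in the sources used here. Of 78298 gene IDs, 51498 matched a symbol, with 99.6% of counts.

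The whole table was tested with edgeR 4.0.16 in R 4.3.3: TMM factors, edgeR's own expression filter, robust quasi-likelihood fits on group, and Benjamini-Hochberg adjustment over 17456 genes. Each standard error is the size of the log2 fold change divided by the root of its F. Log2 CPM used a prior count of 2 and ratios of counts a prior count of 0.5. Alternatives used DESeq2 1.42.0 and limma 3.58.1. Correlations, exact tests and figures used Python 3.11.15, numpy 2.4.6, scipy 1.17.1 and matplotlib 3.10.9. Code was tested on simulated data. Depth limits precision mainly for low genes, since 3 counts stand for 0.0514 to 0.0949 CPM. Replicate libraries differed beyond sampling noise (smallest chi-square per degree of freedom 17.0 over 168 pairs). The labels name mice but no batches, so p-values measure the spread between these mice.

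The 10 genes, the 7 pathway and 10 cell type lists and the tests were chosen with earlier results of these data known. Genes named are the 10, the 3 called genes with the largest change and the most abundant gene of a pathway list, all receptors, and the 3 nearest genes of each described gene; a few others were named after their values were seen. A few genes that this rule names are not reported here. Sequences come from RefSeq (GRCm38.p6), apart from the GRCm39 counts, and matched 7 of 10 genes.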

Additional observations from a re-analysis of the deposited data

How the results depend on the processing

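Across RLE and upper-quartile factors, library totals, DESeq2, limma-voom, other filters, the replicate block, the clock index and leaving out each mouse, Abca1, Abcg1, Abcg5, Abcg8, Mylip, Soat1 and Lcat kept direction and call. Between 6 and 9 of the 10 genes were called higher and 1 lower. Lpcat3 lost its call with RLE factors (log2 fold change 0.16, adjusted p = 0.0627), no filter (0.19, 0.0725), the clock index (0.11, 0.515), DESeq2 (0.16, 0.0527), a threshold of 0.01 (0.18) and 16 of 24 fits with a mouse left out, where its values over all 24 ran from 0.14 to 0.23. Scarb1 gained one with upper-quartile factors (0.27), library totals (0.51) and 6 model mice without a block (0.31, chosen after seeing the data), and ranged from 0.12 to 0.25 with mice left out. Soat2 lost its call with the clock index (0.20). The cause was not tested. Library totals left 2 correlated pairs, against 5 with TMM. The labels give the shared replicate numbers no common origin, and deviations of same-numbered mice correlated at -0.29 to 0.07. With the replicate number as a block over 6 model and 6 control mice, 7 genes were higher and 1 lower, and Lpcat3 was at 0.25 (adjusted p = 0.0831).

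List counts moved mainly with scaling. Shares over all genes moved too. Library totals called 53.9% of all genes higher and 8.95% lower, upper-quartile factors 36.0% and 21.4%, and the clock index 22.3% and 18.3%. Library totals gave 4 higher and 0 lower among receptors, 0 lower among other LXR targets, 1 higher in sterol synthesis, 5 higher in the HDL list, 8 higher and 4 lower in cholesterol transfer, 0 lower among acyltransferases, and 3 higher and 0 lower in bile lipid export. Upper-quartile factors gave 1 higher among receptors, 1 lower among other LXR targets, 1 higher in sterol synthesis, 2 higher in the HDL list, 0 lower among acyltransferases, and 2 higher and 1 lower in bile lipid export. DESeq2 gave 2 higher in the HDL list. The clock index gave 2 lower among receptors, 0 lower among other LXR targets, 2 higher and 0 lower among acyltransferases, 0 lower in bile lipid export, 4 lower in the HDL list, and 8 lower and 2 higher in cholesterol transfer. At the lowest level, Soat1 rests on 20 counts in its smallest control value.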
